A study of Homo sapiens with 2 samples.

Results

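The transcripts of 10 enzyme genes that remove superoxide and peroxides were followed in HepG2, a line derived from a human hepatocellular carcinoma. They comprise the glutathione peroxidases GPX1, GPX2, GPX3, GPX4, GPX7 and GPX8, the catalase CAT and the superoxide dismutases SOD1, SOD2 and SOD3. The genes were taken by name out of 19775 genes with a probe set of their own, and all 19 probe sets annotated to them were read. One group received an ethanolic extract of the polyherbal preparation Padma 28 at 218 μg/ml and the other its solvent, ethanol (EtOH) at 0.9%, both for 18 h. Cells of 3 cultures were pooled for each group and 1 Affymetrix Human Genome U133 Plus 2.0 array was hybridised with the pool. The arrays thus held no replicate, and no difference between them could be tested against the spread between cultures. The qPCR measurements that the study made for selected genes, GPX2 among them, were not analysed here.

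Superoxide dismutases turn superoxide into hydrogen peroxide, which catalase splits into water and oxygen. Glutathione peroxidases reduce hydrogen peroxide or lipid peroxides at the expense of reduced glutathione. GPX1, GPX2, GPX3 and GPX4 carry selenocysteine in the active site, whereas GPX7 and GPX8 carry cysteine. The hepatocyte is rich in catalase, which is kept in peroxisomes, and in GPX1 and SOD1, while GPX2 is best known from the epithelium of the gut. Nrf2 is a transcription factor that acts on antioxidant response elements in promoters of protective genes.

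Among the 10 genes on these arrays, GPX2 was higher with Padma 28 by more than 2-fold on its brighter probe set, GPX3 and GPX1 were lower, and CAT, SOD1 and SOD2 were slightly higher. Values are log2 expression values, and a difference is Padma 28 minus EtOH. A gene is represented by the probe set with the highest mean among those that belong to it alone. Of the 10 genes, 1 was more than 2-fold higher and 0 were lower by as much, beside 0.875% and 0.384% of all genes. Past 1.5-fold, 1 of 10 was higher and 1 of 10 was lower, compared with 3.61% and 1.56% of all genes. The members' median difference was 0.11, against -0.02 over all genes.

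A probe set counted as well above background from 4.25 on the EtOH array and from 4.35 on the Padma 28 array. Of the 19 probe sets, 14 lay above these limits on both arrays, from 8 genes, and 5 lay below them on both. Of those 14, 11 had a difference above 0 and 3 below 0, but the 11 include 4 probe sets of SOD2. Taken by gene, 6 of the 8 lay above 0, among them GPX4 at only 0.001. The share that follows is over genes, so the count of probe sets is not comparable with it. Of the 10361 genes above the limit on at least 1 array, 58.1% lay above 0, with a median of 0.06 and the 5th and 95th percentiles at -0.45 and 0.65. In this set, 1.57% passed 2-fold as higher and 0.705% as lower, and for 1.5-fold the shares were 6.49% and 2.90%. The 8 members in this set had a median difference of 0.23, beside the 0.06 of the whole set.

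**Figure D1:**
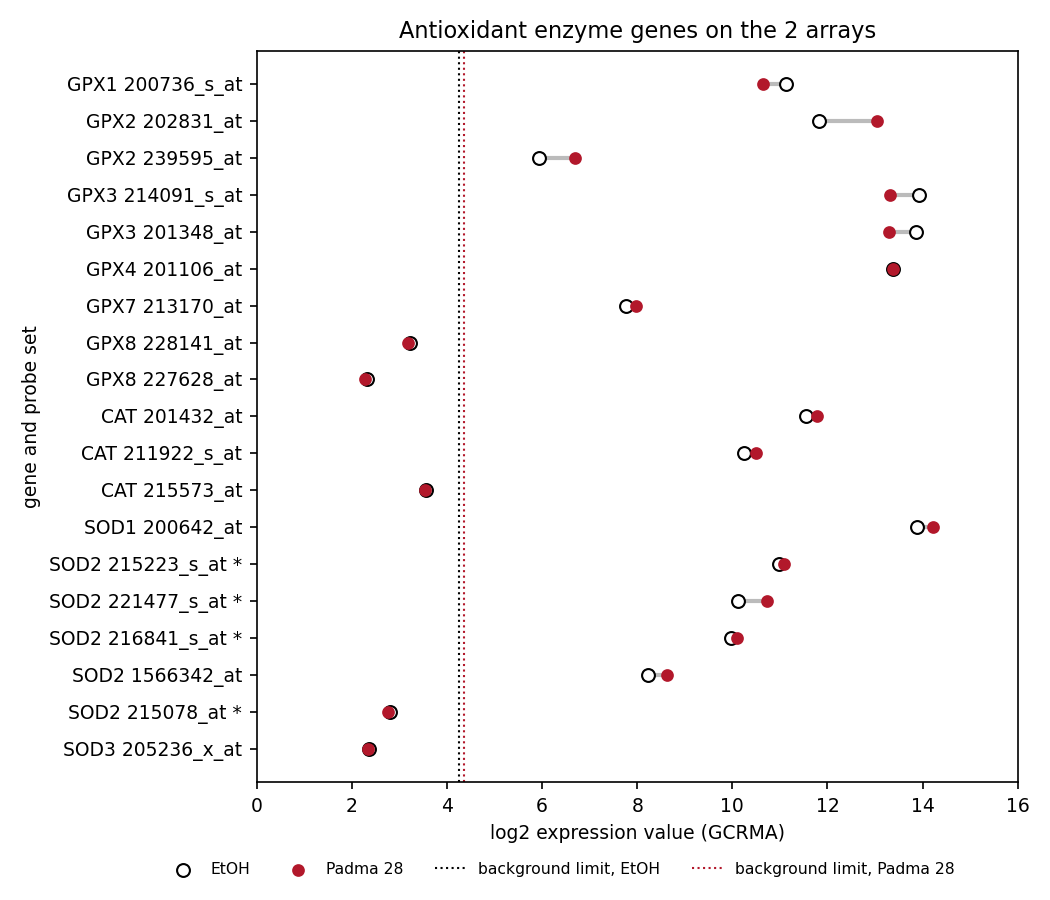
Log2 expression value (horizontal axis) of each of the 19 probe sets of the 10 genes (vertical axis) on the EtOH array (open circles) and the Padma 28 array (red circles), 1 array per group; dotted lines are the background limits at 4.25 and 4.35, and an asterisk marks probe sets shared with SOD2-OT1. Both GPX2 probe sets moved to the right with Padma 28, both GPX3 probe sets to the left, and the 5 probe sets of GPX8, SOD3, CAT and SOD2 left of the lines stayed in place.

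The promoter of GPX2 is shown because it held the core of an antioxidant response element, the sequence on which Nrf2 acts. The gene lies on the minus strand of chromosome 14 at chr14:64939158-64942745 (GRCh38.p14). The printed stretch, from RefSeq, runs from 250 bases before the first transcribed base to 50 bases after it, at chr14:64942696-64942995, and is written 5′ to 3′ along the gene. The capitals mark the match.

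GPX2 promoter: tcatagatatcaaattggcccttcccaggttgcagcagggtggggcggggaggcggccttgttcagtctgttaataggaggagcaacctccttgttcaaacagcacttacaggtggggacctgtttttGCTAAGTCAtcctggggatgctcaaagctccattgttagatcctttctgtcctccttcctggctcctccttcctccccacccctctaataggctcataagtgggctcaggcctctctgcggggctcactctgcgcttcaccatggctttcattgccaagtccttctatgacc

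The letters searched were TGACNNNGC on both strands. In GPX2 they lay on the strand opposite to the gene, where they read TGACTTAGC, between 122 and 114 bases before the first transcribed base. Of 35116 promoter windows of this length, 13.3% held such a match, as did at least 1 window of 16.1% of 27305 genes. Windows were at hand for 9 of the 10 genes, without SOD1, and GPX2 was the 1 of them with a match, a share of the members that is not above that of all genes.

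The other letters were searched in the same way. The GC box GGGCGG was found in GPX1, GPX2, GPX3, GPX4, GPX7, CAT and SOD2, that is 7 of 9 genes, against 48.3% of all genes. The windows of GPX8 and SOD3 held none. Neither the TATA box TATAAA, held by 14.0% of all genes, nor the AP-1 site TGANTCA, held by 9.37%, was found in a window of the 9 genes. The GPX2 window had a GC content of 53.7% and 4 CpG pairs, below the median GC content of 58.7% over all windows. GPX8, at 43.0%, was also below that median. The windows of all the other genes were above it, whether the gene was higher, lower or unchanged. GPX1 reached 69.7%, GPX3 65.0%, GPX7 69.0%, CAT 68.0% and SOD3 61.7%. The windows of GPX4 held 70.7% to 79.0% and those of SOD2 68.0% to 78.3%. A match describes letters in a window and shows no binding.

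**Figure D2:**
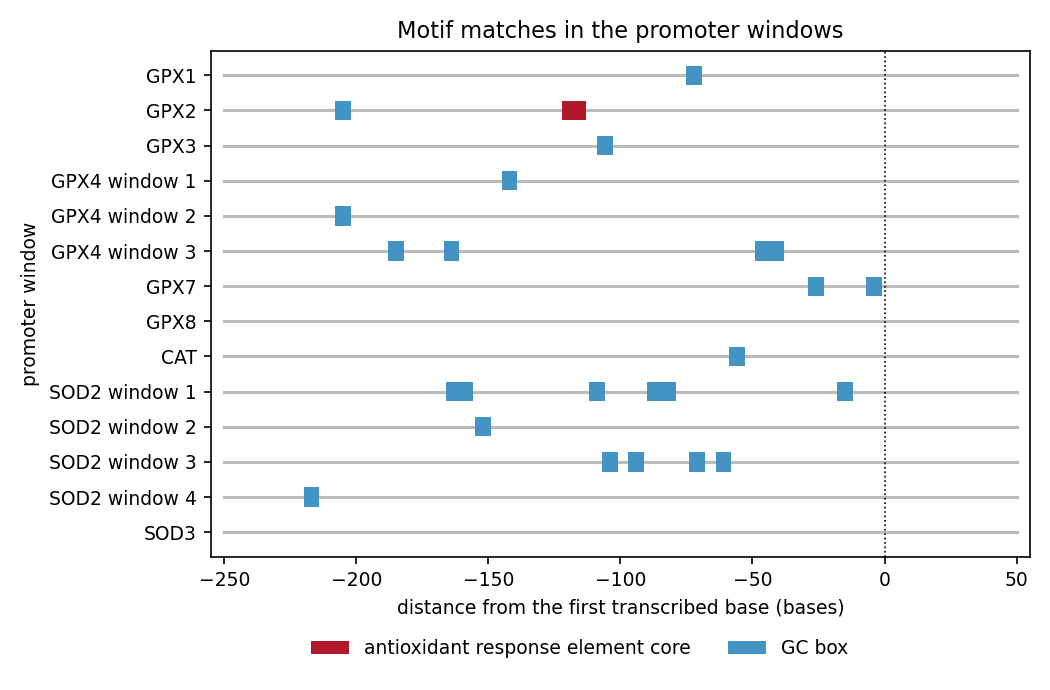
Motif matches (bars, drawn to scale) in the promoter windows of the 9 genes with a window, by distance from the first transcribed base in bases; genes with several starts have a row for each window. The antioxidant response element core (red) stands in GPX2 and in no other of the 9 genes, while GC boxes (blue) stand in 7 of the 9 genes.

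GPX2, a cytosolic peroxidase that takes hydrogen peroxide and small organic peroxides, was at 11.82 with EtOH and at 13.04 with Padma 28 on its brighter probe set. This is a difference of 1.21, or 2.32-fold higher. The dimmer probe set went from 5.94 to 6.70, a difference of 0.76 or 1.69-fold. Both probe sets were above background on both arrays and higher with Padma 28. Of the genes above background, 0.840% had a larger difference than the brighter probe set and 3.42% than the dimmer one.

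The probe sets of GPX2 differed from each other by 0.45. Over 4912 genes with at least 2 probe sets of their own above background on both arrays, the corresponding gap had a median of 0.14 and a 90th percentile of 0.46. Taken as the median of both probe sets, the difference was 0.99 and the gene no longer passed 2-fold.

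GPX3, the peroxidase that is secreted into plasma, was the member with the largest decrease. Its probe sets went from 13.92 to 13.31 and from 13.87 to 13.29. The differences of -0.61 and -0.58 correspond to 1.52-fold and 1.49-fold lower values and lay 0.03 apart. The first was just past 1.5-fold, which is 0.58 on the log2 scale, and the second just short of it. Of the genes above background, 2.63% lay below the first value.

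GPX1, the abundant peroxidase of cytosol and mitochondria, has a single probe set, which was at 11.12 with EtOH and 10.64 with Padma 28. It was 1.40-fold lower, with a difference of -0.49 and 4.30% of the genes above background below it. GPX1 and GPX3 thus lay at the low end of the distribution and GPX2 at the high end.

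GPX4, which reduces lipid peroxides within membranes, stood at 13.38 on both arrays. Its difference was 0.00, and between -0.03 and 0.03 under the alternatives tried. GPX7, an enzyme of the endoplasmic reticulum, went from 7.76 to 7.98, which is 1.17-fold higher. GPX8, a membrane protein of the same compartment, was below background on both arrays with its probe sets at 3.22 and 2.32 with EtOH, and no fold change is given. GPX5, a family gene outside the 10, was below background on both arrays on its 2 probe sets as well.

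**Figure D3:**
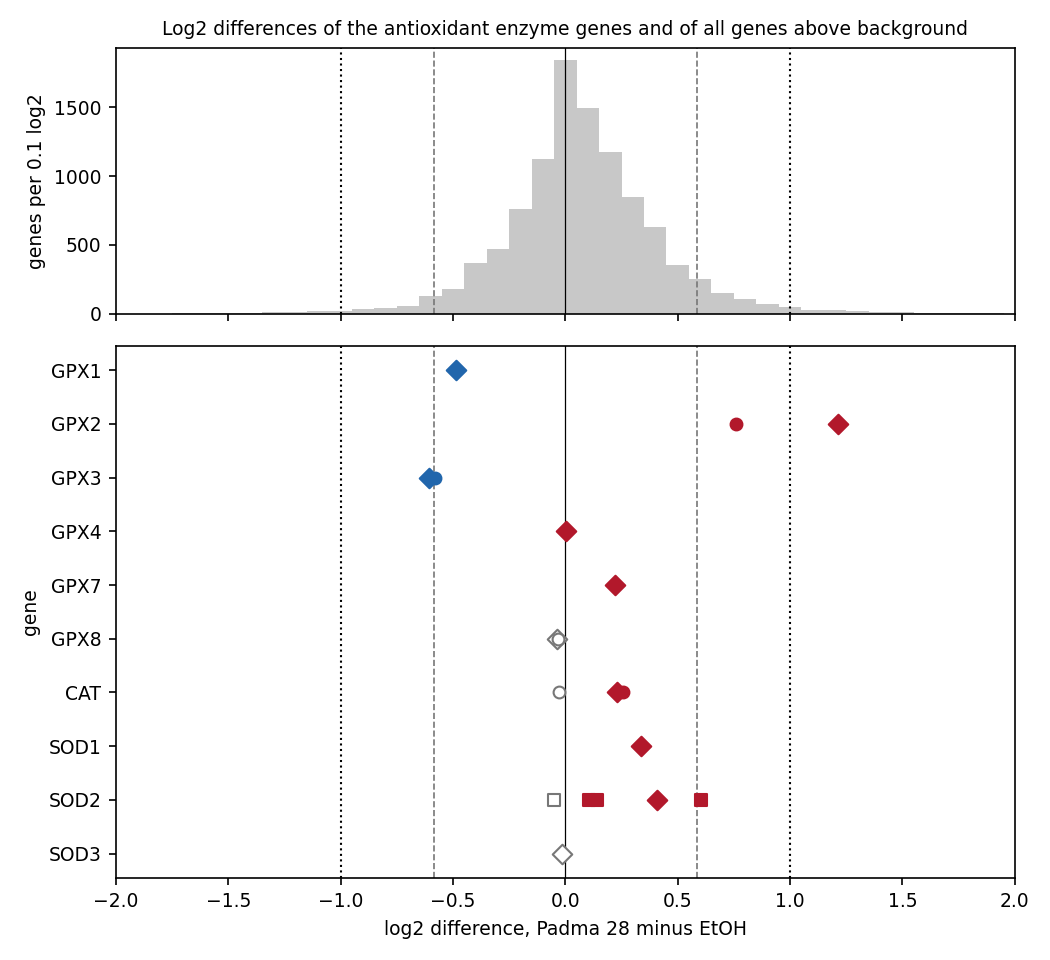
Upper panel, number of genes above background per 0.1 log2 units of difference, Padma 28 minus EtOH, with genes beyond 2 on either side not drawn. Lower panel, difference of every probe set of the 10 genes, 1 array per group: diamonds stand for the gene, circles are its other probe sets, squares are shared with SOD2-OT1, red is above 0, blue below 0 and open symbols are below background; dashed lines mark 1.5-fold and dotted lines 2-fold. GPX2 is the one gene to the right of the 2-fold line, and GPX3 and GPX1 lie on the left.

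CAT was slightly higher with Padma 28. Its brightest probe set went from 11.56 to 11.79 and the next one from 10.25 to 10.51. The differences of 0.23 and 0.25 lay 0.02 apart, at 1.17-fold and 1.19-fold. The third probe set was below background on both arrays, at 3.57 and 3.54. Of the genes above background, 26.8% had a larger difference than the brightest CAT probe set, so this shift was well inside the bulk of all genes.

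SOD1, the copper and zinc enzyme of the cytosol, went from 13.88 to 14.21 on its single probe set, a difference of 0.34 or 1.26-fold. With EtOH, 0.690% of all probe sets were brighter. A larger difference was seen in 17.8% of the genes above background.

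SOD2, the manganese enzyme of the mitochondrial matrix, has 5 probe sets, of which 4 are also annotated to SOD2-OT1. The one that belongs to SOD2 alone went from 8.22 to 8.63, a difference of 0.41 or 1.33-fold. Among the shared ones, values went from 10.13 to 10.73, from 9.96 to 10.11 and from 10.97 to 11.08. The difference was therefore 0.61, past 1.5-fold, on one of them but 0.14 and 0.10 on the others. All 4 probe sets above background were higher with Padma 28, yet they spanned 0.50 log2 units, and the remaining one was below background at 2.80 and 2.75.

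SOD3, the secreted copper and zinc enzyme, was below background on both arrays, at 2.35 and 2.34.

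The genes that serve these enzymes were described in the same way. The counts in the lists below are to be read beside the shares over all genes. These were 0.875% and 0.384% for more than 2-fold higher and lower, and 3.61% and 1.56% for 1.5-fold. Among genes above background they were 1.57%, 0.705%, 6.49% and 2.90%. No list was tested against these shares, and in lists this short a count of 0 says little. Of 9 genes for the insertion of selenocysteine, all above background, 0 passed 1.5-fold and the median difference was 0.10. The nearest was SEPHS1, a homolog of selenophosphate synthetase, at 0.57, followed by the tRNA kinase PSTK at 0.34. The other probe sets of SEPHS1 were at 0.35 and 0.67, and after centring on the median the gene was at 0.60, so that 1 of the 9 passed 1.5-fold there and with the largest difference, where 1 was also lower by as much. Of 17 measured genes of other selenoproteins, 1 passed 2-fold. It was thioredoxin reductase TXNRD1, at 1.29. The phospholipid enzyme SELENOI, at -0.60, was past 1.5-fold as lower, but its other probe set above background was at -0.31. The median of the list was -0.02. With GPX1 to GPX4 added, 2 of 21 selenoprotein genes were more than 2-fold higher, namely GPX2 and TXNRD1, and 2 were more than 1.5-fold lower, GPX3 and SELENOI. With the median over probe sets 0 of 21 passed 2-fold, GPX2 being at 0.99 and TXNRD1 at 0.62, as the other probe set of TXNRD1 was below background at -0.05.

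Enzymes that supply and recycle glutathione, the substrate of the peroxidases, had a median of 0.43 over 10 genes. GCLM and GCLC, the subunits of the enzyme of the first step of glutathione synthesis, were at 1.78 and 1.38. Glutathione reductase GSR, which regenerates reduced glutathione, went from 10.43 to 11.16 (0.73), and 0 of the 10 were past 1.5-fold as lower. The peroxiredoxins and thioredoxins, another route of peroxide removal, had a median of 0.15 over 9 genes, with sulfiredoxin SRXN1 alone past 1.5-fold, at 1.75, and 2 genes past it after centring on the median.

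Of 26 enzymes and subunits that form superoxide or hydrogen peroxide, 12 were above background and 0 passed 1.5-fold. The spermine oxidase SMOX, at 0.54, and the aldehyde oxidase AOX1, at 0.38, were the farthest from 0. For the import of proteins such as catalase into peroxisomes, 2 of 7 genes were past 1.5-fold as higher and 0 as lower, and the median was 0.32. PEX26, the membrane anchor of the import ATPases, went from 5.89 to 7.03 (1.14), although its other probe sets were below background on both arrays at 0.39 and -0.03. PEX6, one of these ATPases, was at 0.59 and 0.55 on 2 probe sets. With 16 added to the linear values PEX26 was at 0.96 and PEX6 at 0.45, short of 2-fold and 1.5-fold, and with the median over probe sets 0 of the 7 passed 1.5-fold.

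Supply of copper and manganese, the metals of the dismutases, showed 0 of 11 genes past 1.5-fold, with a median of -0.01. The divalent metal transporter SLC11A2 was at -0.38 and the copper importer SLC31A1 at 0.28, while 2 dimmer probe sets of SLC31A1 were at -0.05 and -0.13.

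Around lipid peroxidation, the field of GPX4, AIFM2, a ubiquinone reductase that restrains it, was at 0.62 and 0.90 on its 2 probe sets. DHODH, a mitochondrial ubiquinone reductase of pyrimidine synthesis, went from 5.94 to 6.55 (0.60), while its 2 other probe sets were below background. ACSL4, which activates polyunsaturated fatty acids for membrane lipids, went from 12.65 to 12.06 (-0.59), and its other probe sets were at -0.73 and -0.65. These were the 3 of 10 genes past 1.5-fold, and the median was 0.02. After centring on the median ACSL4 was at -0.56 and SELENOI at -0.57, short of 1.5-fold, and DHODH was at 0.50 with 16 added. Of 12 measured regulators of the members, 0 passed 1.5-fold, with PPARG at -0.51 and KEAP1, the repressor of Nrf2, at 0.44 farthest from 0.

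**Figure D4:**
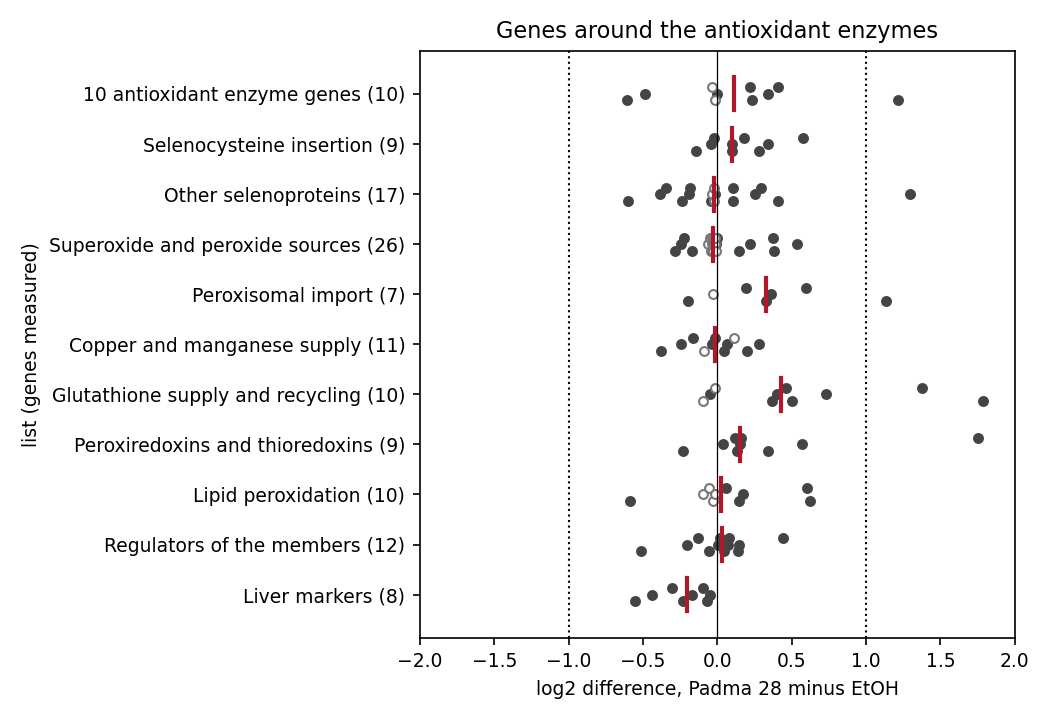
Differences on the log2 scale (horizontal axis, Padma 28 minus EtOH, 1 array per group) for the lists on the vertical axis, each followed by its number of measured genes. A filled point is a gene above background and an open one a gene that was below it throughout, a red bar is the median of its list and the dotted lines stand at 2-fold; the 10 antioxidant enzyme genes have a median of 0.11, between glutathione supply at 0.43 and liver markers at -0.20.

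All 8 measured liver markers, ALB and AFP among them, were above background on both arrays. Beside the lower GPX3, these markers had a median of -0.20, all 8 were below 0 (6 of 8 after a second quantile normalization, and 6 of 7 without _x_at and _s_at probe sets) and 0 passed 1.5-fold, with fibrinogen beta FGB at -0.55 and transthyretin TTR at -0.44. Of all genes above background, 58.1% lay above 0 and 2.90% were more than 1.5-fold lower, on the brightest probe set. By the probe set with the largest difference, 3 of the 8 liver markers were more than 1.5-fold lower, and 2 of these more than 2-fold. Without _x_at and _s_at probe sets, 2 of 7 were more than 2-fold lower. With the median over probe sets, 1 of 8 was more than 1.5-fold lower. Their part in the GPX3 value was not tested. Immune markers were below background in 2 of 2 measured genes, endothelial ones in 2 of 3 and fibroblast ones in 3 of 4. The exceptions were 1 of 5 probe sets of PECAM1, at 6.49 and 6.81, and 1 of 5 of COL1A1, at 6.74 and 6.71.

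The members' differences were recomputed with other probe sets, offsets, filters and scalings. GPX2 ranged from 0.99 to 1.24, GPX3 from -0.64 to -0.58, GPX1 from -0.52 to -0.46, CAT from 0.20 to 0.26 and SOD1 from 0.31 to 0.36. SOD2 ranged from 0.10, with the shared probe sets admitted, to 0.43. These 6 genes and GPX7, at 0.16 to 0.25, kept their sign in all settings that gave a value, whereas GPX4, GPX8 and SOD3 lay within 0.04 of 0 and changed sign.

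**Figure D5:**
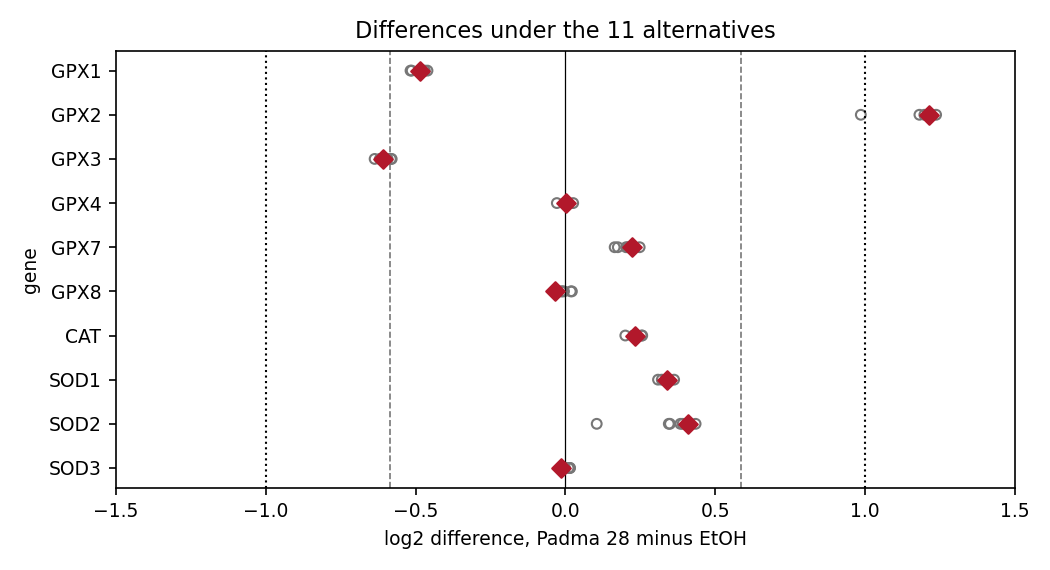
Log2 difference of each of the 10 genes as reported (red diamonds) and under up to 11 alternatives (open circles), 1 array per group; dashed lines mark 1.5-fold and dotted lines 2-fold. GPX2 falls short of 2-fold at 0.99 under one alternative, GPX3 lies across the 1.5-fold line, and SOD2 has one value at 0.10.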

How the data were processed

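Each treatment was measured on 1 array of the Affymetrix platform named above. The authors turned probe intensities into the deposited log2 expression values with GCRMA, which corrects background by probe sequence, applies quantile normalization and summarizes probe sets by median polish. R 2.15.1 with GCRMA 2.28.0 is given in the submitters' processing notes, whereas the methods name earlier versions. Quantile normalization makes both arrays share 1 distribution, so that a shift common to all genes would not be seen. The unspecific filter of the methods was not applied here.

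Differences are Padma 28 minus EtOH. Genes were named from the platform annotation, with symbols updated by Entrez identifier to RefSeq (GRCh38.p14). It gives 1 gene for 41097 of the 54675 probe sets, more than 1 for 1801 and no gene for 11777. The thresholds were 2-fold, as in the methods, and 1.5-fold. The background limit lay 2 log2 units above the mode of each array, found with a bin width of 0.1.

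The members and lists were chosen with earlier results of these data known. The genes named are all members, GPX5, and in each list up to 4 genes past 1.5-fold and above background, or otherwise the 1 or 2 farthest from 0; ALB, AFP and COL1A1 are named as markers. The calculation per gene and the 2-fold threshold were run on simulated data, with added differences larger than those of the members. All probe sets of a changed gene received the same difference, so the choice of a probe set per gene was not tested. The simulated noise was small, so that recovery past 2-fold was largely fixed in advance. The background limit, the 1.5-fold threshold, the lists, the alternatives and the promoter search were not part of that run. The number of arrays limits the precision, and no p-value was computed. The analysis used matplotlib 3.10.9, statsmodels 0.14.6, pandas 2.3.3 and numpy 2.4.6 under Python 3.11.15. Promoters are those of RefSeq.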

Additional observations from a re-analysis of the deposited data

How the results depend on the processing

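Of 11 alternatives, 4 changed the probe sets used (the one farthest from 0, the median of a gene, no _x_at and _s_at types, shared ones admitted) and 2 added 16 or 64 to the linear values. Filters were set 2 or 3 log2 units over the mode, and the scaling was redone by median centring, by loess (span 0.3) or by a second quantile normalization. With the median over probe sets, 0 members were more than 2-fold higher and the peroxisomal import list had a median of 0.15. Without _x_at and _s_at probe sets, and likewise after centring on the median, 0 members were more than 1.5-fold lower. The median of the liver markers was -0.55 with the largest difference and -0.44 without _x_at and _s_at probe sets, and that of the endothelial markers, then 1 gene, was 0.32 under both filters. The other 188 member counts, member medians and list medians stayed within 1.5 times the reported count or within 0.14 log2 units. The latter is the median gap between probe sets of a gene. Counts of genes within the lists are not among the 188, and some of them moved, as given with the lists. SOD3 and GPX8 have no value under the filters, and GPX1 and SOD3 none without _x_at and _s_at probe sets. No paired analysis was possible because each treatment has 1 array.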
